A study of Rattus norvegicus with 6 samples.

Results

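The 89 oligonucleotide probes described here were custom probes on a microRNA (miRNA) array hybridised with rat kidney RNA. They were complementary to small RNA candidates that had been predicted from sequencing reads of rat kidneys, the arrayed animals among them. Members were all probes whose source was given as custom, except 11 that were left out by name, and they were 89 of 100 custom probes and of 5560 miRNA probes in all. The 11 left out had been set aside as relatives of miR-378, but that split was not complete, since 9 members still had rno-miR-378 as their closest rat-named target, within 4 edits. The set is therefore called the custom candidates, by its rule. The other probes were 679 with a rat miRNA name and 4781 of other vertebrates.

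All 6 animals were male Fisher 344 rats carrying the Big Blue transgene (labelled Big Blue Transgenic), 6 weeks old at the start. The 3 control rats, replicates 13, 14 and 15, were untreated. The 3 AA rats, replicates 19, 20 and 21, received aristolochic acid (AA) as its sodium salt by gavage, with 5 doses of 10.0 mg/kg in each of 12 weeks, and their kidneys were collected 1 day after dosing ended. No vehicle control is named, so handling by gavage and AA cannot be told apart. Each kidney was measured on 1 array, and the age is that of the start of treatment for AA and as labelled for controls.

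A miRNA is cut as a hairpin from a longer transcript by Drosha, then trimmed by Dicer to a mature strand that guides an Argonaute protein to messenger RNAs, mainly through the seed near its 5′ end. Sequencing of small RNA also returns fragments of tRNA, rRNA and other transcripts, as well as variants of abundant miRNAs with changed ends or bases. AA comes from plants of the genus Aristolochia, binds to DNA after activation in the body and injures the renal tubule.

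Shown first are 6 of the 9 candidates that lay in an annotated rat hairpin, and 3 others that read 32 or more on every array, with the seed (bases 2 to 8) in capitals.
Candidate_608: gAUACACAgaggcaggaggagaa
Candidate_254: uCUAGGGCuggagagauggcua
Candidate_237: aUUGGGGAcgcuucgcauucau
Candidate_245: cCGUCCUGagcuugucgagcuau
Candidate_63: uCUGGACAggacaggcccugagc
Candidate_492: aUAUGGAGgucucugucugacu
Candidate_527: aUUAGGGUugcagagccagg
Candidate_29: gUUCCAGAaggaacugucugaggga
Candidate_503: uCUGCUCCugcucuuucugcug
No pair of these 9 had the same seed.

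The next sequences are those of the candidates with the 2 largest falls and the 2 largest positive changes between AA and control, each with a relative. Capitals mark a run of 10 bases that Candidate_42, Candidate_70 and Candidate_530 shared.
Candidate_42: uuucUGAUAGGCGGgguaag
Candidate_70: uuucUGAUAGGCGGcagaa
Candidate_530: UGAUAGGCGGgagaagaau
In Candidate_178 and Candidate_246, which lay 2 edits apart, capitals mark their longest shared run, again of 10 bases, and the human miR-720 target of the same array is in lower case.
Candidate_178: cagAUCUCGGUGGgaccucca
Candidate_246: ucaaAUCUCGGUGGaaccucca
hsa-miR-720: ucucgcuggggccucca

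Some of the members within 3 edits (changed, lost or gained bases) of a known rat miRNA are shown beneath the target of the rat-named probe. Candidate_223, Candidate_576 and Candidate_551 lay 3 edits from that target and the others 2. Capitals mark the longest run shared with that target.
rno-miR-378: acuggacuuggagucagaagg
Candidate_223: ugUGGACUUGGAGUCAGgaggc
Candidate_576: ACUGGACUUGcuggcagaaggca
Candidate_525: ACUGGACUUGuagacagaa
Candidate_579: auugcACUUGGAGUCAGAA
rno-miR-143: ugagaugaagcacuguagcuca
Candidate_123: ugagaagauGCACUGUAGC
Candidate_480: UGAGAUGAuggacuguagc
Candidate_575: ugacaugaacCACUGUAGCU
rno-miR-192: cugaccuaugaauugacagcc
Candidate_441: cuggcaUAUGAAUUGACAG
rno-miR-30a: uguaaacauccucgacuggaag
Candidate_551: UGUAAACAUCCgacuggaagc

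Before the candidates are compared, 1 array has to be named. The liver miRNA miR-122 read 8.17 to 48.5 on 5 of the arrays but 15191 on the sixth, AA replicate 20. All 3 miR-122 probes behaved in this way, with at least 13500 on AA replicate 20 and at most 69.2 elsewhere. Of the kidney-rich miRNAs, miR-30a (439 on AA replicate 20 against 1532 to 1980), miR-30c (2317 against 5856 to 8322) and miR-194 (264 against 432 to 802) were lowest on that array, whereas miR-192 (1295) and miR-200b (3041) were not. The kidney markers miR-192, miR-194, miR-30a, miR-30c and miR-200b reached 32 on all 6 arrays, and miR-204 on 0 of 6, while miR-10a was not matched to a rat-named probe. Of the muscle markers, miR-206 reached 32 on 6 arrays and miR-1 and miR-133a on 0. Of the red cell markers, miR-451 reached 32 on 4 arrays and miR-144 on 0, and the brain and leukocyte markers on 0. The same array had the lowest mean probe signal above empty spots, 153 against 270 to 496, and the lowest limma array quality weight, 0.124. The part of these differences in the results below was not tested. The results that rest on this array are given with and without it.

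Set against a threshold of 32, the candidates made a smaller detected group and a larger group below it. Brightness is given as the authors' normalized intensity, in which the study's methods set detection at 32. An intensity depends on how each probe hybridises, so it does not rank the candidates by abundance. Of the 88 members in the authors' table, 18 (20.5%) read 32 or more on all 6 arrays, 15 on 1 to 5 arrays and 55 on 0. At least 1 array was reached by 33 members (37.5%). For the rat-named probes these shares were 14.9% on all 6 arrays and 26.5% on at least 1, and for probes of other species 9.33% and 19.1%. The candidates had been picked because their reads were seen in rat kidney, so the shares of the 3 kinds of probe are a description. Between 22 members (AA replicate 20) and 26 (AA replicates 19 and 21) reached 32 on a single array. Without AA replicate 20, 20 members read 32 or more on all of the other 5 arrays and 33 on at least 1.

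Among the members that reached 32 on at least 1 array, the dimmest was Candidate_440. It had a maximum of 33.9, on AA replicate 19, and its other 5 values were 6.96 or less. Among the members that never reached 32, the highest value was 28.7, Candidate_623 on control replicate 15. Whether Candidate_623 and its relative Candidate_135, 2 edits apart, come from a sequencing adapter was not tested. Of the 5 members that reached 32 on 1 array only, Candidate_168, Candidate_355 and Candidate_543 did so on control replicate 15, and Candidate_98 and Candidate_440 on AA replicate 19. Thus no member was at 32 on a single array that was AA replicate 20. Conversely, Candidate_42 and Candidate_551 missed 32 on AA replicate 20 only, and Candidate_6 missed it on control replicate 15 only, at 30.3.

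Against the spread of empty spots the count of detected members was larger. A member was called well above background where its scanner signal exceeded that of the 2814 empty spots, taken at their median, by more than 3 robust SDs. By this measure 24 members were above background on all 6 arrays and 42 on 0, with 25 above background on AA replicate 20 and 31 to 44 on the other arrays. The median SD between the 3 spots of a tested member was 0.22 on the log2 scale, against 0.15 between the 2 spots of a tested rat-named probe.

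Candidate_608 lies in an annotated rat hairpin and was bright on every array. It read 42968, 33213 and 39003 on the control arrays and 47376, 25834 and 48927 on the AA arrays. The groups overlapped, AA replicate 20 being lowest of all. RefSeq places its 23 bases on GRCr8 at chr3:65165595-65165617, minus strand, inside Mir6216, where they are identical to mature rno-miR-6216. No other gene of the RefSeq table spans that hairpin.

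Candidate_254 is the other hairpin member that read above 32 on every array. RefSeq places it at chr13:42051730-42051751, plus strand, inside Mir3473, where it equals mature rno-miR-3473, and the hairpin lies within the span of the protein-coding gene Zranb3. The closest probe of another species was mmu-miR-3473b, 2 edits away, which read 32 or more on 1 array only.

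The other 7 members in annotated hairpins were dim. Candidate_237 (rno-miR-450b-3p with 1 base more, in Mir450b-1 at chrX:137721083-137721104, minus strand) read 18.1, 10.3 and 28.4 in control and 63.4, 0.72 and 37.1 in AA, so it passed 32 on AA replicates 19 and 21. Candidate_355, in Mir6324 at chr11:48801382-48801401, minus strand, within Brwd1, overlapped no listed mature strand and passed 32 on control replicate 15 only, at 43.3. Candidate_245 (rno-miR-676 with 1 base more, in Mir676 at chrX:69504650-69504672, plus strand, within Eda) had a highest value of 16.6. Candidate_492 lay at chr6:104955400-104955421, minus strand, within Dcaf5, in a hairpin that RefSeq lists under the symbol Scarna3. It held all of rno-miR-1843a-5p and 1 more base at the 5′ end, and its highest value was 16.9. The seed marked for Candidate_492 above is thus shifted by 1 base from that of the mature strand. That mature strand on a mouse-named probe, mmu-miR-1843-5p, read between 6.07 and 11.8. Candidate_63, identical to rno-miR-6315 at chr1:212793253-212793275, minus strand, within Vps51, read at most 6.64.

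A hairpin with both arms among the candidates was Mir6329, which lies within Rdx on chromosome 8. Candidate_435, identical to rno-miR-6329, read 6.22 or less on every array. Candidate_437 came from the other arm, for which no mature strand is listed, and read 21.4 at most, on control replicate 15. Neither arm reached 32. Of the 9 members in hairpins, 4 reached 32 on at least 1 array and 2 on all 6.

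Candidate_527, one of the rat-specific sequences that the study named, lay whole in no RefSeq hairpin but was 1 edit from mature rno-miR-6215 of RefSeq, from which Candidate_64 was 2 edits away. It read 134, 173 and 73.6 in control and 73.5, 51.8 and 166 in AA. Candidate_64, 1 edit away from Candidate_527, read 38, 49.8 and 35.9 in control and 28.8, 3.39 and 73.9 in AA. AA replicate 20 was lowest for both, and the groups overlapped for both. The 2 probes share sequence, and binding of 1 RNA to both was not tested.

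Several candidates at 32 or more on every array had no close relative among the rat-named targets. Candidate_626, which had the highest G+C share of the set at 85.7%, read between 1616 and 3023, lowest on AA replicate 20. Candidate_155 read between 3078 and 6003, Candidate_29 between 110 and 379 and Candidate_503 between 37.1 and 262, with the highest value of the last on control replicate 15. None of these lay within 4 edits of a rat-named target. Candidate_503 was the only member found in the RefSeq promoter windows (short windows around each gene start, both strands searched), in 2 of 33469, or 0.00598%, both listed for LOC120103609.

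Another group was far dimmer on AA replicate 20 than elsewhere. Candidate_312, with 35% G+C, read 4414, 6450 and 5031 in control, 8292 and 10682 on AA replicates 19 and 21 and 521 on AA replicate 20. Candidate_170 read 1391 there against 5628 to 7118, Candidate_306 read 1200 against 2292 to 4081, and Candidate_514 read 82.6 against 157 to 422. Candidate_148, which lay 2 edits from hsa-miR-1280, read 592 there against 892 to 1744, and the hsa-miR-1280 probe itself was lowest on the same array, at 403 against 534 to 1231. After normalization AA replicate 20 was the lowest of the 6 arrays for 19 of the 34 tested members (55.9%) and the highest for 2 (5.88%). Over all 1132 tested probes it was lowest for 46.5% and highest for 24%. Candidate_6 and Candidate_545 were the 2 members highest on it, at 167 against 30.3 to 85.6 and at 86.3 against 9.37 to 39. In scanner signal above empty spots, before normalization, neither was highest there. Candidate_6 had 48.2 against 30.2 to 182 and Candidate_545 had 35.1 against 13.1 to 81.4.

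Brightness followed base composition across the set, and G+C-rich candidates were detected more often. Spearman's rho between the G+C share of the target and the mean log2 signal was 0.564 across the 89 members, which share arrays and, in part, sequence. It was 0.178 across the 679 rat-named probes and 0.291 across the 4781 of other species. On single arrays rho across members lay between 0.353 (AA replicate 20) and 0.564 (control replicate 13). The G share alone gave 0.256. Among the 33 members that reached 32 on at least 1 array rho was 0.0674.

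In numbers of members, 2 of 24 with under 45% G+C reached 32 on at least 1 array, 14 of 38 with 45 to under 55%, and 17 of 26 with 55% or more. On all 6 arrays the counts were 1, 8 and 9. Candidate_312 was the member under 45% on all 6, and Candidate_440, at 30%, was the other one detected. The median G+C share was 45.5% in the 55 members never at 32, 55% in those at 32 on 1 to 5 arrays and 54.8% in those on all 6. The range over the whole set ran from 26.3% in Candidate_77 to 85.7% in Candidate_626. The set's median of 50% lay near that of the rat-named probes, 47.6%. Targets were 19 to 25 bases long with a median of 21, and 40.4% started with U against 35.8% of rat-named targets.

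The members closest to rat-named targets were dim. Similarity was counted in edits (changed, lost or gained bases) with the shorter target placed inside the longer. Within 2 edits of a rat-named target lay 10 members, and 0 of them reached 32 on any array. Their highest value was 12.6. The 11 custom probes left out by the rule, 2 or 3 edits from rno-miR-378, are outside this count. Of those, 5 reached 32 on at least 1 array and 1 on all 6. Candidate_28 (miR-30e), Candidate_387 (miR-101a), Candidate_441 (miR-192), Candidate_519 (miR-182), and Candidate_525 and Candidate_579 (both miR-378) all stayed at 4.44 or less, and Candidate_102 (miR-103) gave the 12.6. By contrast the rat-named probe read 32 or more on all 6 arrays for miR-30e, miR-103, miR-143, miR-182, miR-192 and miR-378, and on 0 for miR-101a. Another 14 members lay within 2 edits of a probe of another species but not of a rat-named target. Of those 14, 9 reached 32 on at least 1 array, Candidate_223, Candidate_551 and Candidate_576 among them, and 4 on all 6. Of the 66 measured members over 3 edits away, 29 reached 32 on at least 1 array and 17 on all 6. The median G+C share was 42.1% for the 10 near copies and 50% for the members over 3 edits away, and its part in this difference was not tested.

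The relatives of miR-143 were dim as a group. miR-143 is a miRNA of smooth muscle and other mesenchymal cells. Its probe read 261 to 514. Candidate_123, Candidate_480, Candidate_575, Candidate_109, Candidate_203 and Candidate_414, all within 3 edits of it, read 5.66 or less. Candidate_17 lay 2 edits from Candidate_123 and read 3.04 or less.

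The miR-378 relatives that the rule had left in the set were not all dim. miR-378 arises from an intron of Ppargc1b, a regulator of mitochondrial metabolism. Candidate_223 was 3 edits from rno-miR-378 with a shared run of 15 bases, and 1 edit from Candidate_546, which the rule leaves out. It read 36264, 30135 and 11046 in control and 30149, 24243 and 18093 in AA. The groups overlapped, and control replicate 15 was the lowest. The rno-miR-378 probe read 323 to 667. Candidate_576, also 3 edits away, read 51.3, 197 and 26.6 in control and 29.2, 109 and 45.1 in AA, and the other 7 relatives, Candidate_346 (1 edit from the left-out Candidate_171) among them, did not reach 32.

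Candidate_551 was the bright relative of the miR-30 family, which is abundant in kidney epithelium. It shared the first 11 bases of miR-30a and lay 3 edits from it. It read 472, 639 and 297 in control, 448 and 366 on AA replicates 19 and 21 and 8.48 on AA replicate 20. The rno-miR-30a probe also had its lowest value on that array. Candidate_444, 3 edits from let-7c, passed 32 on control replicates 13 and 14 only, at 42.6 and 33.5. Over the whole set, 14 members carried the seed of a rat-named target, of which 3 reached 32 on at least 1 array and 0 on all 6.

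Between AA and control 0 of the 34 tested members passed limma's adjusted p of 0.05 (3 arrays against 3), and 0 passed by the methods' test after the same adjustment. Over all 1132 tested probes 0.177% passed. A probe was tested where it reached 32 on at least 1 array, which 55 members did not. The lowest adjusted p among members was 0.832. Changes are differences of normalized log2 scanner signal, AA minus control. Of the tested members 16 were higher and 18 lower in AA, with a median of -0.05, and the median over all tested probes was also -0.05. With median scaling 11 were higher and 23 lower (median -0.20, all tested probes -0.26), and without normalization 9 and 25 (median -0.27, all tested probes -0.32). At an unadjusted p under 0.05, 1 member was higher, against a background of 1.15%, and 2 were lower, against 3.8%. In 1 member all AA arrays were above all control arrays, where 4.42% of all tested probes were. In 3 members, 2 of them described here, all were below, where 5.57% of all tested probes were.

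The largest falls were in the related pair Candidate_42 and Candidate_70. On the normalized log2 scale Candidate_42 measured 10.03, 10.54 and 8.72 in control and 7.91, 6.48 and 8.10 in AA. All 3 AA arrays lay below all 3 control arrays, with control replicate 15 the lowest of its group. The change was -2.27 (SE 0.60; control 9.76 ± 0.94 and AA 7.50 ± 0.89, SD, n = 3 each), with a limma p of 0.0064 and an adjusted p of 0.832. On AA replicate 20 Candidate_42 was not well above background, so its value there is only a bound. In the authors' intensities the same member read 968, 1436 and 314 in control and 168, 28.3 and 176 in AA.

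Candidate_70 measured 9.36, 10.34 and 8.51 in control and 7.49, 7.24 and 8.10 in AA on the same scale. Again no array of one group reached the other on this scale, nor in the authors' intensities for either member of the pair. Before normalization, in scanner signal above empty spots, the groups overlapped for both Candidate_42 and Candidate_70. AA replicate 19 then lay above control replicate 15, in Candidate_70 at 258 against 207. The normalized change of Candidate_70 was -1.79 (SE 0.49; control 9.40 ± 0.92 and AA 7.61 ± 0.45, SD, n = 3 each), limma adjusted p = 0.832. Candidate_530, which starts at the shared run, did not separate the groups, with 13.25, 13.21 and 13.68 in control and 12.22, 12.81 and 13.72 in AA (change -0.47, SE 0.41, limma adjusted p = 0.885). Without AA replicate 20 the changes were -1.76 in Candidate_42 and -1.60 in Candidate_70, with limma adjusted p of 0.397 and 0.451.

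Candidate_254, in the Mir3473 hairpin, was the member for which all AA arrays were higher after normalization. It also carries one of the rat-specific sequences that the study named, and the study reported a significant change of its array level with AA. It measured 7.92, 7.99 and 8.07 in control and 8.71, 8.57 and 9.00 in AA. The change was 0.77 (SE 0.25; control 7.99 ± 0.08 and AA 8.76 ± 0.22, SD, n = 3 each), with a limma p of 0.017 and an adjusted p of 0.871. Without AA replicate 20 it was 0.86, with a limma adjusted p of 0.353. The authors' intensities were 164, 173 and 180 in control and 311.6, 315 and 391 in AA. In scanner signal above empty spots, before normalization, the groups overlapped. Candidate_254 then had 420, 203 and 144 in control and 992, 56.8 and 348 in AA, with AA replicate 20 the lowest of all.

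Candidate_178 and Candidate_246 had the largest positive changes, and their size rested on AA replicates 19 and 20. The sequence once listed as miR-720, their relative, is known as a fragment of a tRNA. Candidate_178 measured 7.56, 7.22 and 7.55 in control, 9.71 and 8.87 on AA replicates 19 and 21 and 7.16 on AA replicate 20. Candidate_246 measured 7.48, 7.33 and 7.23 in control, 9.93 and 9.06 on AA replicates 19 and 21 and 6.83 on AA replicate 20. For both, 2 AA arrays were above all control arrays and the remaining one was below them all on this scale. In the authors' intensities Candidate_178 read 92.6 on AA replicate 20, within its control range of 77.2 to 117. Candidate_246 read 56.8 there, below its control range of 87.0 to 110.

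With all arrays the change was 1.14 (SE 0.61) in Candidate_178 and 1.26 (SE 0.73) in Candidate_246, both at a limma adjusted p of 0.885. Without AA replicate 20 it was 1.85 and 2.15, with limma adjusted p of 0.117 and 0.0791. Without AA replicate 19 the changes were 0.57 and 0.60. The miR-720 probe of human name, 2 edits from Candidate_178 and 3 from Candidate_246, had a change of 1.10 with all arrays and 1.77 without AA replicate 20 (limma adjusted p = 0.885 and 0.117). The mouse-named mmu-miR-720 probe went from 1.00 to 1.73 (limma adjusted p = 0.885 and 0.117). The orangutan-named ppy-miR-720 probe went from 1.16 to 1.97 (limma adjusted p = 0.885 and 0.0224). These probes share sequence and are not separate evidence.

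Other members moved with AA replicate 20. Candidate_551 had the third largest fall, -0.91 (SE 0.66, limma adjusted p = 0.885), which was -0.12 without that array, where it was not well above background. Candidate_312 went from -0.40 (SE 1.15) to 1.10 (SE 0.26, limma adjusted p = 0.353). Without AA replicate 20, 21 of the 34 tested members were higher in AA and 13 lower, with a median of 0.13. At an unadjusted p under 0.05, 6 members were then higher (background 5.3%), namely Candidate_29, Candidate_84, Candidate_178, Candidate_246, Candidate_254 and Candidate_312, and Candidate_42 and Candidate_70 were lower (background 2.83%). Still 0 members passed the adjusted threshold.

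With limma's array quality weights, which gave AA replicate 20 the least weight, 6 members passed an adjusted p of 0.05. Candidate_84, Candidate_178, Candidate_246 and Candidate_254 were higher (1.5% of all tested probes were called higher) and Candidate_42 and Candidate_70 were lower (2.39% were). Their lowest limma adjusted p was 0.036. The weights were estimated from the same arrays, so these calls are given as an alternative.

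Of the members with rat-specific sequences that the study named, Candidate_608 and Candidate_527 changed by less than 1 SE, and Candidate_254 by more, as given above. The bright Candidate_223 also changed by less than 1 SE. Candidate_608 changed by 0.09 (SE 0.25, limma adjusted p = 0.936), Candidate_527 by -0.15 (SE 0.37, limma adjusted p = 0.932) and Candidate_223 by 0.04 (SE 0.47, limma adjusted p = 0.969). With these standard errors and 3 arrays a group, changes of that size were not detectable. The change was 0.50 in Candidate_29, and the changes of the tested members not named in this comparison lay between -0.64 (Candidate_170) and 0.47 (Candidate_155).

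Candidate_84 was the member absent from the authors' table. Its scanner signal above empty spots was 227, 105.96 and 98.2 in control and 607, 25.8 and 186 in AA. Thus it was well above background on all 6 arrays and lowest on AA replicate 20. Its change was 0.46 (SE 0.36, limma adjusted p = 0.885), and 0.82 without AA replicate 20. Candidate_440 was tested although it was well above background on 0 control arrays and 1 AA array, so no fold is given for it.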

How the data were processed

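Kidney RNA of 3 control and 3 AA rats was measured, 1 array per animal, and the labels gave the groups, whose replicate numbers do not overlap. The study tailed small RNA with poly(A), ligated a tag for Cy3 and scanned 1 colour. The deposited scanner values are raw spot intensity (median over pixels) for 15066 spots an array, neither background-corrected nor normalized, with no local background. The deposited table of intensity values was background-subtracted and LOWESS-normalized by the authors on a linear scale, and its LOWESS reference is not given in the sources used here. Detection was read from that table.

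Scanner intensity was corrected with normexp (offset 50), fitted with control and empty spots included and those then dropped, log2 signal was quantile-normalized, and spots of a probe were averaged. Probes at 32 or more on at least 1 array in the authors' table (Candidate_84 by scanner signal above empty spots) were tested with limma 3.58.1 in R 4.3.3, with Benjamini-Hochberg adjustment over 1132 probes. The offset understates changes of dim probes. Edits were counted with edlib 1.3.9.post1 in Python 3.11.15. Mature strands, hairpins, promoter windows and genes came from RefSeq (assembly GRCr8), since the arrays' own files give no build.

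The members and lists were chosen with earlier results of these data known. Named were members that carry a rat-specific sequence the study names, read 32 or more on all 6 arrays, had an unadjusted p under 0.05, were among the 3 largest changes either way, lay within 2 edits of a rat-named target or inside a RefSeq hairpin, or were absent from the authors' table. One member that this rule names is not reported here. Some others are named for a count or a relation, after their values were seen. Alternatives covered background correction, normalization, filter, test, array weights, averaging of spots, the authors' values, detection thresholds and leaving out each replicate. Subtraction of a local background and a slide or scan block were not run, since the files name neither. The code was tested on simulated data. The number of arrays and the signal over background limit the precision.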

Additional observations from a re-analysis of the deposited data

How the results depend on the processing

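No paired analysis was possible because the groups share no replicate numbers. The number of candidates past the adjusted threshold was 0 in 16 of the 17 alternatives run and 6 with array quality weights. Over all tested probes the count was 2, and it became 44 with array quality weights and 0 with cyclic loess, median scaling or no normalization. Leaving out 1 array gave 0 to 3 calls, with 3 only without AA replicate 20. The log2 changes of Candidate_42, Candidate_70, Candidate_178, Candidate_246, Candidate_254, Candidate_551 and Candidate_84 kept their direction in every alternative run for them (Candidate_84 has no authors' values). When 1 array was left out they ranged from -2.79 to -1.76, from -2.24 to -1.32, from 0.57 to 1.85, from 0.60 to 2.15, from 0.65 to 0.86, from -1.34 to -0.12 and from 0.23 to 0.82 in that order. Candidate_254 changed by 0.40 with median scaling and 0.33 without normalization, Candidate_551 by -0.43 with cyclic loess and -1.36 on the authors' values, and Candidate_84 by 0.89 with array weights. The change of Candidate_223 rose to 0.69 with cyclic loess, turned to -0.0240 with median scaling, -0.0833 with spots combined by their median, -0.0918 without normalization and -0.55 with array weights, and ranged from -0.48 to 0.32 when 1 array was left out. That of Candidate_312 was -1.14 with median scaling and -1.21 without normalization, turned to 1.01 with array weights and ranged from -1.27 to 1.10. That of Candidate_608 rose to 0.81 with cyclic loess and turned to -0.00388 without normalization and -0.0270 with spots combined by their median. That of Candidate_527 was -0.56 without normalization and -0.02 with array weights, and ranged from -0.43 to 0.0524 when 1 array was left out.

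Members at 32 or more on all arrays numbered 12 by scanner signal, 15 at a threshold of 64 and 24 by empty spots, against 18, and 18 to 20 when 1 array was left out. On at least 1 array they numbered 38, 25 and 47 under the same alternatives, against 33, and 30 to 33. The rank correlation of G+C share with brightness was 0.0674 among detected members alone and 0.256 for the G share. Within 3 edits of a rat-named target lay 22 members, within 1 edit 0, and 3 shared a run of at least 14 bases, against 10 within 2 edits. The causes of these shifts were not tested. At the lower end, 42 members were at the level of empty spots on every array, so a difference between AA and control was not detectable in them.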
